A study of Mus musculus with 6 samples.

Results

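The probes described here are 3885 oligos of 60 bases on a mouse lncRNA microarray, chosen because their transcripts were abundant in the inner ear. A probe was taken when its name began with A_ (the manufacturer's catalogue style), when it was spotted once on the array, when its processed signal was at least 1000 on all 6 arrays, and when no array carried an outlier flag for its spot. These 3885 probes were 7.70% of the 50481 single-spot catalogue probes and 2.67% of the 145548 probes that were not controls. Of 3887 probes bright enough, 2 were left out for a flag. The processed signal is the scanner's brightness after background subtraction, on a linear scale. The probes were chosen by these measured signals, so their brightness is given as a description, while the genotype played no part in the choice.

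Total RNA came from the inner ears of mice 8 weeks old, either Fscn2+/+ (n = 3) or Fscn2-/- (n = 3), with 1 mouse per array and no restriction on sex. Both genotypes are on the C57BL/6J background and the knockout carries a null mutation made with a TALEN pair aimed at the first exon of Fscn2. Each array was labelled with Cy3 alone. The first slide held Fscn2+/+ arrays 1 and 2, and the second slide held Fscn2+/+ array 3 and the 3 Fscn2-/- arrays, so that slide and genotype overlap in part.

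Fscn2 encodes fascin-2, a protein that cross-links actin filaments into bundles in the stereocilia of hair cells and in photoreceptors. The inner ear holds hair cells, supporting cells, neurons, fibrocytes, the stria vascularis, bone and blood, and an extract of the whole organ pools the RNA of all of them. In such an extract fewer cells of a type and less RNA per cell cannot be told apart. A 60-base array probe catches labelled RNA of the matching strand, and probes for the members of a repeated sequence catch many transcripts at once.

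The files gave none of the 3885 probes a gene or a place in the genome, and the description of each was "Unknown". The hair cell, supporting cell and fibrocyte markers that would check the tissue label, and the Fscn2 transcript itself, were therefore not analysed here. A gene is mentioned below only where the whole probe lay within the sequence around a RefSeq gene start, or where the probe held a primer or knockdown target of the study.

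The sequences that carry the results are given first. Of the 8 probes past the thresholds of a 2-fold difference and an unadjusted p of at most 0.05, 6 were related in sequence and all 6 gave lower signal in Fscn2-/-. Capitals mark the 7-base words TTTTTCA and TTTTCAG, which all 6 probes held:
A_55_P1978636: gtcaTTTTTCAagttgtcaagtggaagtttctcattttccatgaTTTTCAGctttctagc
A_55_P2138104: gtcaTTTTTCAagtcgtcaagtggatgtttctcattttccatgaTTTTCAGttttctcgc
A_55_P2165554: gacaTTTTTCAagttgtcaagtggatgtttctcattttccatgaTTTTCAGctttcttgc
A_66_P124164: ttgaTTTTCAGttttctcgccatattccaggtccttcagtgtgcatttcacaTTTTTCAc
A_55_P2465382: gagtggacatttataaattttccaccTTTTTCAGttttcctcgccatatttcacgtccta
A_55_P2093862: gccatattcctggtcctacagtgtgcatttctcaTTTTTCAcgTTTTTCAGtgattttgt

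Both words are common and can overlap in the run TTTTTCAG. TTTTTCA stood in 0.727% of all probes on the array and its reverse complement in 0.937%, and TTTTCAG in 0.837%, with its reverse complement in 1.01%. The relation of the 6 probes therefore rests on longer letters. A relative was defined, after the values were seen, as a probe sharing at least 10 of the 10-base words of the 6. No other probe of the 145548 was a relative on either strand. The 6 themselves were grouped by a looser rule, sharing any 10-base word with another probe past both thresholds. They were not held to the rule for relatives, so its result does not show that the group is complete. As background, such letters are those of the mouse major satellite, the tandem repeat next to the centromeres. No table used here holds that repeat, so the assignment was not tested.

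The other probes past both thresholds, 1 lower and 1 higher in Fscn2-/-, shared no such letters and are shown with no base marked:
A_51_P321126: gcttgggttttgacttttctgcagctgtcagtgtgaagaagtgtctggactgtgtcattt
A_55_P2355676: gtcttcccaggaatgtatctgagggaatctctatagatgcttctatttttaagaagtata

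A second group of 4 related probes was far brighter on a single Fscn2-/- array than on the other 5. Capitals mark the 8-base words CTGCTGCC and GCTGCTGC, held by all 4, which overlap in the run GCTGCTGCC of 3 of them:
A_52_P635791: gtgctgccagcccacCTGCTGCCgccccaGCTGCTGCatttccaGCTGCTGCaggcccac
A_55_P2047778: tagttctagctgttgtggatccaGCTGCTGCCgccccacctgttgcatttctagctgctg
A_55_P2047800: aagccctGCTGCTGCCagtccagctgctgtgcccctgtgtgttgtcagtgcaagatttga
A_55_P1963578: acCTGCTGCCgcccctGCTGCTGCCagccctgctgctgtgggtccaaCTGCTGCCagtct

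CTGCTGCC stood in 0.148% of all probes and its reverse complement in 0.115%. For GCTGCTGC the shares were 0.155% and 0.122%.

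The bright probes had similar signal levels across the 6 mice, with the lowest medians on the first slide. Their median processed signal was 2406, 2340 and 2954 on Fscn2+/+ arrays 1 to 3, and 2875, 2614 and 2768 on Fscn2-/- arrays 1 to 3. The highest single signal on an array lay between 299586 and 464824. The 3885 probes held between 42.9% and 47.2% of the summed signal of each array. All 3885 were well above background on every array by the scanner's own call, and 0 were saturated. Pairwise correlations of their scaled log2 signals between arrays ran from 0.96 to 0.99 over the 3885 probes, which share probe chemistry and base composition and are not replicates. These correlations compare levels over a wide range of brightness, so they do not measure the differences between mice.

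At the floor of 1000, the 10 probes just inside had a lowest array signal between 1000.03 and 1002.56 and log2 fold changes from -0.46 to 0.43. The 10 just outside had a lowest signal between 997.9 and 999.8 and log2 fold changes from -0.38 to 0.29. A further 54 catalogue probes reached 1000 on the 3 Fscn2+/+ arrays only, and 622 did so on the 3 Fscn2-/- arrays only. Among them 1 and 4 respectively passed both thresholds in that direction, so the demand for brightness on all arrays kept those probes out. Over all tested probes 0.46% were lower and 2.54% higher past both thresholds. The floor applies to unscaled signals, and the bright probes' medians were lowest on the first slide. Slide and genotype therefore cannot be told apart in the 54 and 622.

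Across the 3885 abundant transcripts the Fscn2-/- inner ear differed little from the Fscn2+/+ inner ear. In the fit of all 63073 tested probes with limma, 1 of the 3885 was higher and 7 were lower in Fscn2-/- at a 2-fold difference and an unadjusted p of at most 0.05. The background for these counts was 2.54% of all tested probes higher and 0.46% lower, against 0.0257% and 0.18% of the bright probes. All tested probes include many dimmer ones, so this background is not matched for brightness. The median signal of all single-spot catalogue probes was 60.5 and 50.2 on the first slide. On the second slide it was 64.3 in Fscn2+/+ and 63.5 to 76.3 in Fscn2-/-. How far the background follows the slide was not tested. No bright probe had a Benjamini-Hochberg adjusted p below 0.05 in limma, where 0.0856% of all tested probes did, and the smallest adjusted p was 0.138. At an unadjusted p below 0.05 limma had 114 bright probes, or 2.93%, against 13.9% of all tested probes, and the methods' t-test had 292 (7.52%, against 10.2% of all tested probes) at that level and 0 after adjustment. Of the 114, 16 were higher, which is 0.412% of the 3885 against 9.78% of all tested probes. The other 98 were lower, which is 2.52% against 4.14%. This split depended on the scaling of the arrays. It was 47 higher and 53 lower after quantile normalization, and 73 higher and 54 lower after scaling to the bright probes' own median. Scaling to the 75th percentile over all probes gave 3 higher and 317 lower. The array as a whole moved too, its tested probes having a median of -0.01 with the main scaling and -0.09, 0.07 and -0.18 with these, in that order. No share of all tested probes is given for these counts, so they do not set the bright probes apart from the rest. With the main scaling and a fold change of 1.5 in place of 2, 8 bright probes were higher (0.206%, against 7.07% of all tested probes). At that fold change 21 were lower (0.541%, against 2.55%).

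The size of the differences was small. The log2 fold changes of the bright probes (Fscn2-/- over Fscn2+/+) had a median of -0.09 and quartiles of -0.20 and 0.03, and those of all tested probes had a median of -0.01 and quartiles of -0.20 and 0.24. The fold change was below 2 for all but 11 of the 3885 probes and below 1.5 for all but 38. The median spread between arrays of 1 genotype, with any slide difference included, was 0.17 log2 units (SD) for the bright probes and 0.26 for all tested probes. For 3757 of the 3885 (96.7%) the 95% interval of the log2 fold change lay wholly within a 2-fold difference either way, and for 2115 (54.4%) within a 1.5-fold difference. The same shares over all tested probes were 74.8% and 30.3%.

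With the main scaling more of the bright probes lay on the lower side in Fscn2-/-. The genotypes did not overlap for 512 probes that were lower and 96 that were higher. This is 13.2% and 2.47%, against 8.28% and 12.3% of all tested probes. The split moved with the scaling of the arrays. Of the probes whose genotypes did not overlap, 84.2% were lower with the main scaling, 60.9% after quantile normalization, 54.4% after scaling to the bright probes' own median, and 99.4% after scaling to the 75th percentile over all probes. After quantile normalization 6.02% of the bright probes were higher and 9.40% lower without overlap, against 7.35% and 15.1% of all tested probes, so that the lower share then stood below the background. Scaled to the bright probes' own median, the shares were 7.28% and 8.70% against 17.1% and 4.80%. Scaling to the 75th percentile over all probes gave 0.154% and 24.6% against 5.30% and 18.8%, and it moved the median of all tested probes to -0.18. The bright probes' median stood 0.09 log2 units under that of all tested probes with the main scaling (difference -0.09), and 0.06 above it after quantile normalization.

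Other probes of the same brightness were much alike. Of 1498 single-spot probes with CUST_ names at or above 1000 on all arrays, 1 was higher and 0 were lower past both thresholds, with a median log2 fold change of -0.07. Of 111 probes spotted 10 times and equally bright, 0 passed in either direction, with a median of -0.11. The 29538 dimmer or flagged catalogue probes that were tested had 369 higher (1.25%) and 125 lower (0.423%), a median of -0.04 and a within-genotype SD of 0.23. The differences between these sets were not tested.

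The 6 TTTTTCA probes shown above were the largest decreases among the abundant transcripts. A_55_P1978636 had signals of 11891, 14117 and 5410 on Fscn2+/+ arrays 1 to 3 and of 4216, 2781 and 4062 on Fscn2-/- arrays 1 to 3. Its log2 fold change was -1.61 ± 0.42 (SE; limma adjusted p = 0.234). The genotypes did not overlap, but Fscn2+/+ array 3, which shared the slide of the knockouts, stood nearer to the knockouts than to the other Fscn2+/+ arrays.

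A_55_P2138104 had signals of 41551, 51336 and 16647 in Fscn2+/+ and 13934, 9965 and 13915 in Fscn2-/-, a log2 fold change of -1.59 ± 0.46 (SE; limma adjusted p = 0.263). A_55_P2165554, whose letters overlap those of both probes before it, had 21506, 26965 and 8589 against 7223, 5008 and 7506, a log2 fold change of -1.59 ± 0.47 (SE; limma adjusted p = 0.266). In both, Fscn2+/+ arrays 1 and 2 were high and the other 4 arrays were low. Probes that share letters can read the same RNA, so these are not taken as independent readings.

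The brightest of the 6, A_66_P124164, had signals of 66786, 71165 and 27279 in Fscn2+/+ and 26000, 16377 and 21631 in Fscn2-/-, a log2 fold change of -1.46 ± 0.43 (SE; limma adjusted p = 0.266). A_55_P2465382 had 36805, 42688 and 15212 against 13452, 9357 and 14240, a log2 fold change of -1.43 ± 0.44 (SE; limma adjusted p = 0.277). The pattern was again high on 2 arrays and low on 4. In A_55_P2093862, with 38704, 37643 and 18092 against 19052, 11051 and 14976, the genotypes overlapped once scaled, and the log2 fold change was -1.21 ± 0.38 (SE; limma adjusted p = 0.28).

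All 6 thus followed the slide as well as the genotype. Fscn2+/+ array 3 minus the mean of Fscn2+/+ arrays 1 and 2 was -1.34 (A_55_P2093862) to -1.75 (A_55_P2165554) log2 units. The Fscn2-/- mean lay below Fscn2+/+ array 3 by less, with differences from -0.32 (A_55_P2093862) to -0.59 (A_55_P1978636). With slide as a block in the fit, the log2 fold change of A_55_P1978636 was -0.59 ± 0.29 (SE; limma adjusted p = 0.979), and none of the 6 passed the thresholds. Without Fscn2+/+ array 3 the 6 had log2 fold changes from -1.65 (A_55_P2093862) to -2.17 (A_55_P2165554), all with a limma adjusted p below 0.05. In that fit each genotype lies on a slide of its own, so slide and genotype cannot be told apart. Without Fscn2+/+ array 1 or 2, A_55_P2093862 no longer passed, at -1.01 and -0.97. With the methods' t-test only A_55_P1978636 of the 6 passed. The smallest exact two-sided permutation p that 3 against 3 arrays allow is 0.10, and 5 of the 6 had it, with 0.2 for A_55_P2093862. The part that the slide plays in these differences was not tested beyond the block.

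The only decrease past both thresholds that did not follow the slide was A_51_P321126. Its signals were 6662, 4674 and 6745 in Fscn2+/+ and 4026, 2386 and 3105 in Fscn2-/-, so that every knockout lay below every Fscn2+/+ mouse. The log2 fold change was -1.13 ± 0.21 (SE; limma adjusted p = 0.138), a 2.18-fold decrease with a 95% interval from -1.62 to -0.63, and the p was the smallest among the bright probes. Fscn2+/+ array 3 differed from the mean of arrays 1 and 2 by only 0.014 log2 units, and with slide as a block the log2 fold change was -1.14 ± 0.32 (SE; limma adjusted p = 0.676). Without Fscn2-/- array 2, and with normexp background correction, it was -0.99, just under 2-fold. The exact permutation p was 0.1, the smallest possible.

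The only increase past both thresholds was A_55_P2355676, whose signals were 3610, 4125 and 11999 in Fscn2+/+ and 18314, 11006 and 17802 in Fscn2-/-. The log2 fold change was 1.26 ± 0.39 (SE; limma adjusted p = 0.279), which no longer passed without Fscn2+/+ array 1 (0.95) or without array 2, and the genotypes overlapped, since Fscn2+/+ array 3 exceeded Fscn2-/- array 2. This probe also followed the slide, with Fscn2+/+ array 3 higher than arrays 1 and 2 by 1.38 log2 units, and with slide as a block the log2 fold change was 0.34 ± 0.31 (SE; limma adjusted p = 0.979). A_55_P2106844, named after its values were seen, had the same form, with 1226, 1659 and 4517 against 4627, 4395 and 5214. Its log2 fold change was 0.99 ± 0.39 (SE; limma adjusted p = 0.328).

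The slide split was seen in few of the bright probes but in most of those past both thresholds. Fscn2+/+ array 3 stood at least 2-fold above the mean of Fscn2+/+ arrays 1 and 2 in 15 of the 3885 probes and at least 2-fold below it in 16. Of the 8 probes past both thresholds, 7 were among these, shifted in the direction of their call. Of these 7, 6 were the related TTTTTCA probes, which are not independent readings. With slide as a block 2 probes were higher and 1 was lower, the lower one being A_51_P321126. The higher ones were A_52_P609972, with a log2 fold change of 1.01 in place of 0.46, and A_55_P2762569, with 1.17 in place of 0.66. Both were dimmest on Fscn2+/+ array 3, at 1162 and 4816, and neither passed after adjustment (limma adjusted p = 0.849 and 0.92). No share over all tested probes is given for the slide split or for the fit with slide as a block. These counts therefore stand without a background.

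Smaller differences that did not follow the slide are given as values, since none passed the fold threshold. A_55_P2032445 had 2659, 2721 and 3199 in Fscn2+/+ and 1916, 2108 and 2033 in Fscn2-/-, a log2 fold change of -0.69 ± 0.16 (SE; limma adjusted p = 0.201). A_55_P2538668 had 19323, 16183 and 22523 against 15406, 12170 and 14521, a log2 fold change of -0.64 ± 0.15 (SE; limma adjusted p = 0.213). In both the scaled values of the genotypes were apart. In the other direction A_51_P413130 had 1472, 1689 and 1959 against 2936, 2889 and 3495, with every knockout above every Fscn2+/+ mouse and a log2 fold change of 0.68 ± 0.16 (SE; limma adjusted p = 0.213). A_55_P1973809 had 22352, 20464 and 26242 against 18124, 17161 and 15624, a log2 fold change of -0.62 ± 0.16 (SE; limma adjusted p = 0.23).

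The CTGCTGCC probes set 1 mouse apart. A_52_P635791 had signals of 1649, 1516 and 2079 in Fscn2+/+ and 3806, 1764 and 18966 in Fscn2-/-, so that Fscn2-/- array 3 was far above every other mouse. A_55_P2047778 had 1201, 1118 and 1257 against 2045, 1142 and 11767, and A_55_P2047800 had 1472, 1181 and 1243 against 2297, 1267 and 8865. A_55_P1963578 was brighter in every mouse, with 6920, 6380 and 7156 against 9253, 6824 and 24202. In all 4 Fscn2-/- array 3 was highest, Fscn2-/- array 1 came next, and Fscn2-/- array 2 was close to the Fscn2+/+ mice.

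With all 6 arrays none of the 4 passed the thresholds. Their log2 fold changes ran from 0.57 ± 0.40 (SE, A_55_P1963578) to 1.35 ± 0.71 (SE, A_52_P635791), and the smallest limma adjusted p among them was 0.441. The values rested on single mice. Without Fscn2-/- array 3, A_52_P635791, A_55_P2047778, A_55_P2047800 and A_55_P1963578 had log2 fold changes of 0.43, 0.21, 0.25 and 0.07. Without Fscn2-/- array 2 they had 2.06, 1.80, 1.57 and 0.90, and A_52_P635791, A_55_P2047778 and A_55_P2047800 then passed both thresholds, with a smallest limma adjusted p of 0.398. These 4 were the only bright probes for which Fscn2-/- array 3 stood more than 2-fold above all other arrays. Their relatives, found after the values were seen by the same sharing of at least 10 words of 10 bases, were 13 probes in all, 5 of them in the bright set and 8 too dim for it. The 4 themselves were picked for their signal on Fscn2-/- array 3. Of the 9 others, which share letters with them and may catch the same RNA, Fscn2-/- array 3 was the highest array in 9 and more than 2-fold above the next in 8, and Fscn2-/- array 1 exceeded the Fscn2+/+ mice and Fscn2-/- array 2 in 8. Among the 8 dimmer relatives the excess of Fscn2-/- array 3 over the next array was 4.19-fold to 10.2-fold. The fifth bright relative, A_55_P1999246, was 1.32-fold above the next array. Of the 13, 3 lay in the area of the array with raised dim signal, which held 27.5% of the single-spot catalogue probes. What set these mice apart was not tested.

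The most abundant transcripts of all did not pass a threshold between genotypes. The brightest probe, A_51_P338803, had 299586, 300599 and 396724 in Fscn2+/+ and 464824, 418397 and 432283 in Fscn2-/-, a log2 fold change of 0.22 ± 0.15 (SE; limma adjusted p = 0.545). The next, A_55_P2735067, had 262411, 288689 and 379260 against 366846, 362108 and 363855, a log2 fold change of 0.06 ± 0.16 (SE). Neither passed a threshold, and the raw signals of both were lowest on the first slide.

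Of the other 8 among the 10 brightest, A_55_P2736734, A_55_P2723764, A_66_P101646, A_55_P1968285, A_55_P2127174 and A_65_P00792 had log2 fold changes between -0.02 (A_55_P2723764) and 0.10 (A_65_P00792). The remaining ones were A_55_P1962303 at -0.24 ± 0.17 (SE) and A_66_P115525 at 0.33 ± 0.16 (SE), the largest difference of the 10. Its signals were 115069, 115158 and 160424 against 200725, 175477 and 178595, with a limma adjusted p of 0.398. None of the 10 passed a threshold.

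A probe that held a primer of the study is described next. It cannot check the scale, since equal levels of its RNA between genotypes were not shown. A_55_P2185359 held the forward primer for Gapdh, a glycolytic enzyme, in the study's primer list:
A_55_P2185359: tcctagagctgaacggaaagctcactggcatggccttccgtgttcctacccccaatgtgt

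Its signals were 41817, 53069 and 64048 in Fscn2+/+ and 60479, 59888 and 56432 in Fscn2-/-. The log2 fold change was -0.01 ± 0.19 (SE; limma adjusted p = 0.983), with a 95% interval from -0.44 to 0.42. The sign turned with other settings, which put it between -0.19 and 0.07.

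For 20 of the 3885 probes the whole 60 bases lay within the RefSeq sequence (GRCm38.p6) from 250 bases before to 50 after a gene start, 11 on the strand of that gene and 9 on the other. A probe on the other strand reads RNA running away from the gene, not the gene's own transcript. All 20 stayed near the Fscn2+/+ level, with log2 fold changes from -0.31 (A_66_P130242) to 0.44 (A_66_P133093), none with an unadjusted p below 0.05 and a smallest limma adjusted p of 0.449.

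The brightest of the 20 was A_55_P2025655, on the strand opposite to Cdr1 at chrX:61185640-61185699, at positions -141 to -82 from the Cdr1 start. This locus is known for an abundant circular RNA transcribed antisense to Cdr1 in neurons. A 60-base probe cannot tell a circular from a linear transcript:
A_55_P2025655: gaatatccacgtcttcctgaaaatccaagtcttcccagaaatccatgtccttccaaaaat

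Its signals ran from 127839 to 169215, and its log2 fold change was -0.0039 ± 0.15 (SE; limma adjusted p = 0.994). A_52_P311031, opposite to Stt3b, a catalytic subunit of the oligosaccharyltransferase, lay at chr9:115310519-115310578. It ran from 42979 to 82340, with a log2 fold change of 0.26 ± 0.18 (SE). Neither of these abundant antisense signals passed the test.

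Other placed probes fell inside a neighbouring gene. A_51_P279854, opposite to Vmac, lay within Ndufa11, a subunit of respiratory complex I, at chr17:56717818-56717877, with a log2 fold change of -0.09 ± 0.21 (SE). A_55_P2047748, upstream of the deacylase gene Sirt7 on the same strand, lay within Mafg, a small Maf transcription factor, at chr11:120625151-120625210, with 0.04 ± 0.16 (SE). A_55_P1991552, upstream of Cad, which encodes the enzyme that starts pyrimidine synthesis, lay within Atraid at chr5:31054559-31054618, with -0.17 ± 0.15 (SE). For these, the window gene and the gene that is read need not be the same.

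A_55_P1955733 lay within Ptpn5, a tyrosine phosphatase, at chr7:47132771-47132830, with a log2 fold change of -0.03 ± 0.16 (SE). A_55_P2047009 lay within Slfn5 and its antisense transcript Slfn5os at chr11:82952034-82952093, with 0.27 ± 0.17 (SE). A_66_P130242 lay within Psd4, an exchange factor for Arf6, at chr2:24367579-24367638, with -0.31 ± 0.17 (SE). A_66_P133093, on the strand opposite to the zinc finger gene Zfp280d at chr9:72274788-72274847, had the widest range relative to its level, from 3389 to 7656, with 0.44 ± 0.28 (SE). No window gene among the 20 was on any of the 23 gene lists drawn up for the tissue, so those lists were not analysed here.

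Pairs of probes that share letters may read the same RNA, which was not tested, and their log2 fold changes were compared. Of the 3885 probes, 316 shared a run of at least 30 bases with another tested probe, in 534 pairs. The median difference between the log2 fold changes of a pair was 0.09 without sign, and 532 of the 534 pairs differed by less than 1.5-fold. Unrelated pairs were not compared. The fold change was below 1.5 for all but 38 bright probes, so such closeness was likely for unrelated pairs too. For the 26 bright probes with a partner spotted 10 times the median difference was 0.06, but their log2 fold changes correlated at only r = 0.20, and 21 of the 26 shared 1 partner, A_55_P2788443. Across all pairs the log2 fold changes correlated at r = 0.68, as a description of pairs that share arrays, letters and in part members. One pair was the same oligo under different names, A_55_P2015410 and A_55_P2499423, whose sequence was:
A_55_P2015410: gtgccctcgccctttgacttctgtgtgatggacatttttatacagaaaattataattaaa

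A_55_P2015410 had signals of 1815, 2420 and 3380 in Fscn2+/+ and 3571, 3677 and 4037 in Fscn2-/-. A_55_P2499423, at another place on the array, had 1922, 2297 and 2785 against 3122, 2645 and 4162. The log2 fold changes were 0.42 and 0.31, and on a single array the readings of 1 oligo differed by up to the gap between 3677 and 2645. Differences of this size between single spots therefore occurred with no difference in sequence.

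The bright probes held more G and C than the rest of the catalogue, with a median of 27 of 60 bases (quartiles 25 and 31) against 25 (21 and 27) in the other 46596 single-spot catalogue probes. Runs of 6 or more of 1 base stood in 8.03% of the bright probes and 6.11% of the others. The polyadenylation hexamer AATAAA, known to lie near the 3′ end of many mRNAs, stood in 8.78% against 10.4%, and its reverse complement TTTATT in 2.93% against 4.02%. Letters that recur near many genes were commoner among bright probes. A 25-base word found near the starts of at least 10 RefSeq genes stood in 90 bright probes (2.32%) and in 51 of the others (0.109%). These 90 had a median signal of 10864, a median log2 fold change of -0.17 with a range from -0.46 to 0.50, and 0 past both thresholds (limma), with 1 at an unadjusted p below 0.05.

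The median log2 fold change was close to the same in most classes of base composition, brightness and place, while the calls were not evenly spread. The median log2 fold change was -0.10 in the 819 probes with at most 24 G and C bases, -0.10 in the 2008 with 25 to 30, -0.08 in the 965 with 31 to 36, and 0.04 in the 93 with more. Of the 8 probes past both thresholds, 7 had at most 24 G and C bases, 1 had 25 to 30, and 0 had more. Among these 8 were the 6 related TTTTTCA probes, which are not independent readings. The spread of the 8 over classes is therefore not that of 8 separate calls. The dimmest, middle and brightest 1295 probes had medians of -0.09, -0.09 and -0.10, while all 8 probes past both thresholds were in the brightest set. In the 1046 probes (26.9%) lying in the area where dim spots were raised, the median was -0.06, with 3 of the 8 calls. Outside it, the 2839 probes had -0.10 and 5 calls.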

How the data were processed

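Total RNA of 6 inner ears was labelled with Cy3 and hybridised to 1-colour Agilent arrays. The authors extracted spot intensity with Agilent Feature Extraction 10.7.1.1, and the deposited processed signal is that intensity after background subtraction. The authors also deposited a table of log2 values, which differed from quantile-normalized log2 processed signals by an SD of at most 0.0056 in the bright probes. The array's build and probe annotation were not given in the sources used here.

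Processed signals were averaged per probe on the log2 scale over unflagged spots, and scaled by subtracting the 75th percentile of each array, taken over the 48800 probes that all 6 arrays detected above background. The fit covered 63073 probes detected above background in all mice of either genotype, or of both, in limma 3.58.1 (R 4.3.3; lmFit, eBayes, two-sided), with p adjusted by Benjamini-Hochberg over all of them. Thresholds were a fold change of 2 and an unadjusted p of 0.05, as in the methods. Precision is limited by the number of arrays. The p-values rest on the spread between single mice of a genotype, with any slide difference included. The fit was tested on simulated data. The simulation held no slide difference, so it does not test the fit where slide and genotype overlap.

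The area of raised dim signal was 35 of 128 equal blocks of the array. Named probes were those past both thresholds without overlap of the genotypes, the 10 brightest, and any holding a Gapdh or Parvb primer or target sequence. Others, among them the probes past both thresholds with overlapping genotypes, the 5 smallest p, the related probes and those placed by sequence, were named after their values were seen. The Gapdh primer was matched once by hand to the methods' list. Probes, lists and thresholds were chosen with earlier results of these data known. Alternatives were other scalings, background correction, filters, brightness floors, blocks and leaving out each array.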

Additional observations from a re-analysis of the deposited data

How the results depend on the processing

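No bright probe had an adjusted p below 0.05 except without Fscn2+/+ array 3, where 8 did: the 6 TTTTTCA probes, A_55_P2355676 and A_55_P2106844. Without that array each genotype lies on a slide of its own, so these 8 calls cannot be told apart from slide. The counts that follow are mostly given without the share of all tested probes under the same setting. Probes higher past both thresholds, 1 in the main fit, numbered 2 with area and brightness centring, normexp, quantile normalization, scaling to the bright probes' median, the authors' processed values, the slide block and within the second slide, 0 with the methods' t-test or outside the raised area, 5 with a mean signal of at least 1000, and 8 at 1.5-fold. Probes lower, 7 in the main fit, numbered 21 at 1.5-fold, 2 with the t-test, and 1 with the slide block and within the second slide. Leaving out 1 array gave 0 to 5 higher and 6 to 8 lower, 0 to 8 with an adjusted p below 0.05, and medians from -0.12 to -0.04. Probes with an unadjusted p below 0.05, 114 in the main fit, numbered 320 with the 75th percentile over all probes, 298 with a mean-variance trend and robust fit, 443 with normexp, 292 with the t-test, 29 with no filter, 57 with the slide block, 52 within the second slide, 65 at a floor of 2000, 230 at a floor of 500, and 36 to 163 with 1 array left out, 36 being without Fscn2-/- array 3.

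The median log2 fold change of -0.09 became -0.26 with the 75th percentile over all probes, -0.032 with quantile normalization, -0.033 with the authors' values, and -0.012 with scaling to the bright probes' median. The Gapdh probe A_55_P2185359 (-0.01) turned to 0.067 with quantile normalization and with scaling to the bright probes' median and to 0.057 with the authors' values, and leaving out 1 array put it between -0.159 and 0.072, above 0 without Fscn2+/+ array 2, Fscn2+/+ array 3 or Fscn2-/- array 3. The cause of these shifts was not tested.

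With replicate number as a replicate block, 69 bright probes had an unadjusted p below 0.05, and 1 higher and 7 lower passed both thresholds. The numbers mark no shared litter or day in the labels. Between genotypes, the deviations of arrays 1, 2 and 3 correlated at 0.11, 0.06 and -0.43 over the bright probes. Over all tested probes the correlations were 0.23, 0.03 and -0.03. Deviations within a genotype are tied to one another, and Fscn2+/+ array 3 lay on another slide than arrays 1 and 2. The correlations therefore cannot show whether arrays of the same number share a litter or day, which was not tested.

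At 3 mice a genotype, the median 95% interval of a bright probe reached 0.41 log2 units to either side.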
